A study of Mus musculus with 10 samples.

Results

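The immunity-related GTPases (IRGs) of the mouse are large GTP-binding proteins that cells make in response to interferons, and 5 of their genes are described here: Iigp1, Ifi47, Igtp, Irgm1 and Irgm2. Their members were taken as every probe set of the array whose only annotated gene symbol was 1 of these 5, which gave 6 probe sets (2 for Iigp1 and 1 for each other gene) of 45037 apart from controls, and 5 of 18193 genes. The 5 genes were chosen by their difference between the groups in these same arrays, so that difference is given as a description with no test of its own.

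RNA came from whole hippocampi of 10 female SJL/J mice of 8 to 10 weeks at 2 days after an axonal lesion, with 1 mouse per Affymetrix array. Before the lesion, 5 mice (TPlp+AxL) had been given T cells specific for proteolipid protein (Plp), a main protein of central myelin, by adoptive transfer, and 5 mice (AxL) had the lesion alone. All 10 mice were lesioned, so no array shows the unlesioned hippocampus or transferred T cells without a lesion, and the comparison asks which transcripts differ after a lesion when these T cells were given. Values are log2 RMA expression, so a difference of 1 is 2-fold, and p-values measure the spread between these mice.

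IRG proteins fall into effectors and regulators. The effectors, among them Iigp1 and Ifi47, load onto the membrane around intracellular parasites and bacteria such as Toxoplasma and Chlamydia and break it. The regulators Irgm1, Irgm2 and Igtp (also called Irgm3) sit on the cell's own membranes and hold the effectors in their inactive state there. Interferon gamma, which activated T helper cells release, induces the family through its receptor and the kinases Jak1 and Jak2, by way of the gamma-activated site (GAS) in promoters, and through Irf1, which binds interferon regulatory factor (IRF) elements.

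The promoters of 4 of the 5 genes, all on chromosome 11, are shown because the family is known for interferon-responsive sites next to the start, and that of Iigp1 is not shown. Each window runs from 250 bases before to 50 bases after the annotated start, taken from RefSeq on GRCm38.p6 and written 5′ to 3′ on the gene's strand. Capitals mark matches to TTCNNNGAA (GAS) or GAAANNGAA (IRF element), searched on both strands. That of Igtp is chr11:58199306-58199605 on the plus strand, and that of Irgm2, the next protein-coding gene, is chr11:58214727-58215026 on the plus strand. That of Irgm1 is chr11:48871371-48871670 on the minus strand, and that of Ifi47 is chr11:49076337-49076636 on the plus strand.
Igtp: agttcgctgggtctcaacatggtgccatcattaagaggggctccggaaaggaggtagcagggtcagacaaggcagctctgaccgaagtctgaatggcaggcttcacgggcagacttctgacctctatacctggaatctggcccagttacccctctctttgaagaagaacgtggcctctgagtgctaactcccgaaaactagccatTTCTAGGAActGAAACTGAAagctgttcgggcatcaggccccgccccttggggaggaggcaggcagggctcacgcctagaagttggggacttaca
Irgm2: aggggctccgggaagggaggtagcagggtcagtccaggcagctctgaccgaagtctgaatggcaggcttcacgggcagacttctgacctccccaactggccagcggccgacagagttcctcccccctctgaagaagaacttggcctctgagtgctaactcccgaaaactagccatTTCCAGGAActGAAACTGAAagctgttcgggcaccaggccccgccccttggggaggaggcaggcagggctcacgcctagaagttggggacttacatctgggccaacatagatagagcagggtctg
Irgm1: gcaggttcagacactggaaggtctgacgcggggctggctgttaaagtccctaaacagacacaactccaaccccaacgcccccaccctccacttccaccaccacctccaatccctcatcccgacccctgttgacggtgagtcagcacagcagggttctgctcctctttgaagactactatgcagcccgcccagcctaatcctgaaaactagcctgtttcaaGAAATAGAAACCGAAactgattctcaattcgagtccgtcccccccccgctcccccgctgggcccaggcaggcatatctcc
Ifi47: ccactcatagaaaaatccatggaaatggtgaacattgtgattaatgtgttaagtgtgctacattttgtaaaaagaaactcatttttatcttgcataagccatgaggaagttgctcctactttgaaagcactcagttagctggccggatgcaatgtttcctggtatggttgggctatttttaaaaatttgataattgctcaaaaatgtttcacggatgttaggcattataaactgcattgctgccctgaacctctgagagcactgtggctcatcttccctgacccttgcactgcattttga

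Igtp and Irgm2 each held 1 GAS match followed by 1 IRF element match, with 2 bases between them. In Igtp the GAS match covered bases -45 to -37 and the IRF element match bases -34 to -26 from the start, and in Irgm2 they covered bases -75 to -67 and -64 to -56. Irgm1 held 2 overlapping IRF element matches, at -30 to -22 and -24 to -16, and 0 GAS matches, and the Ifi47 window held 0 matches to either. Of 32851 windows of this length over the mouse genes, 8.3% held a GAS match, 8.56% an IRF element match and 1.07% both. The windows of Igtp and Irgm2 were 73.5% identical in a global alignment, and the other 5 pairs were 47.4% to 53.9% identical. The sequence is that of the reference mouse strain and not of SJL/J, and IRG genes are known to differ between inbred strains. A match is a run of letters, not a site shown to be bound in these mice.

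**Figure D1:**
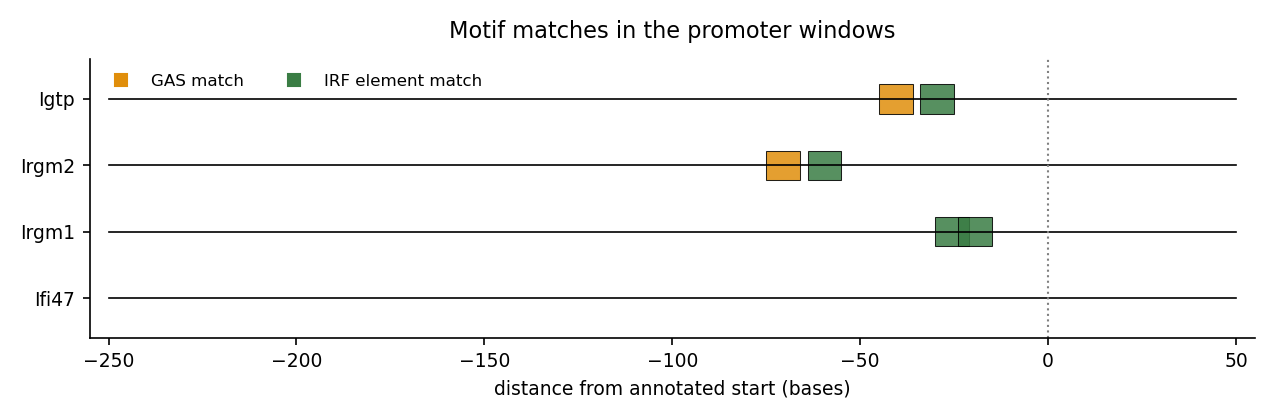
Positions of the motif matches in the promoter windows of Igtp, Irgm2, Irgm1 and Ifi47. The x axis is the distance in bases from the annotated start (dotted line). Orange boxes are GAS matches and green boxes IRF element matches. Igtp and Irgm2 carry the same pair in the same order, Irgm1 carries 2 overlapping IRF element matches, and Ifi47 carries 0.

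Each of the 6 probe sets was higher in TPlp+AxL hippocampi, by 1.15 to 2.45 on the log2 scale (2.22-fold to 5.45-fold). All 6 passed the threshold of an adjusted p under 0.05 in limma, where 0.646% of all probe sets passed as higher and 0.189% as lower in TPlp+AxL. The groups did not overlap for any of the 6, where 1.94% of all probe sets had non-overlapping groups with TPlp+AxL higher. Since the genes were selected on this contrast, nothing is read from these counts. The median difference of the 5 genes, each by its brightest probe set, was 1.59, beside -0.003422 over all probe sets. In whole tissue, more cells that carry a transcript and more transcript per cell cannot be told apart.

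Among the effectors, Iigp1 (also called Irga6) had the largest mean difference of all 45037 probe sets. Its brighter probe set read 11.08, 9.63, 12.13, 11.62 and 11.55 in TPlp+AxL mice 1 to 5, against 8.84, 8.44, 8.92, 8.61 and 8.97 in AxL mice 1 to 5. TPlp+AxL mouse 3 was highest and mouse 2 lowest, and mouse 2 still lay 0.65 above the highest AxL array. The mean was 11.2 ± 0.96 in TPlp+AxL and 8.75 ± 0.23 in AxL (SD, n = 5 each), a difference of 2.45 (SE 0.37, 5.45-fold).

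The dimmer Iigp1 probe set gave the same picture. It read 9.91, 8.5, 10.74, 10.21 and 10.32 in TPlp+AxL mice and 7.74, 7.56, 7.78, 7.48 and 7.77 in AxL mice. Again TPlp+AxL mouse 2 was lowest of its group, and the groups were 0.72 apart at their nearest arrays. The difference was 2.27 (SE 0.33, 4.83-fold), the fourth largest of all probe sets. The brighter probe set exceeded it in all 5 TPlp+AxL mice, by a mean of 0.18 (SE 0.08) once each was set relative to its AxL mean.

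Ifi47 (also called Irgd), the other effector, had the smallest difference of the 5 genes. It read 9.46, 8.62, 9.26, 9.15 and 9.37 in TPlp+AxL mice and 8.13, 7.98, 8.01, 7.97 and 8.02 in AxL mice. Here mouse 1, not mouse 3, was the highest TPlp+AxL array, while mouse 2 was again the lowest and lay 0.49 above every AxL array. The mean was 9.17 ± 0.33 in TPlp+AxL and 8.02 ± 0.06 in AxL (SD, n = 5 each), a difference of 1.15 (SE 0.13, 2.22-fold).

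Among the regulators, Igtp had the largest difference. It read 10.67, 9.39, 11.44, 10.98 and 11.15 in TPlp+AxL mice and 8.67, 8.51, 8.66, 8.82 and 8.67 in AxL mice. TPlp+AxL mice 3 and 5 were highest, and mouse 2 was lowest and 0.58 above the highest AxL array. The mean was 10.73 ± 0.8 in TPlp+AxL and 8.66 ± 0.11 in AxL (SD, n = 5 each), a difference of 2.06 (SE 0.3, 4.17-fold).

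Irgm2, the neighbour of Igtp, read 8.94, 8.05, 9.57, 9.15 and 9.4 in TPlp+AxL mice and 7.52, 7.37, 7.43, 7.36 and 7.46 in AxL mice. The TPlp+AxL arrays stood in the same order as for Igtp, mouse 3 above 5, 4, 1 and 2, and the groups were 0.53 apart. The mean was 9.02 ± 0.59 in TPlp+AxL and 7.43 ± 0.07 in AxL (SD, n = 5 each), a difference of 1.59 (SE 0.23, 3.02-fold).

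Irgm1, a regulator that is also needed for the survival of T cells exposed to interferon gamma, came nearest to overlap. It read 10.59, 9.58, 10.82, 10.62 and 10.85 in TPlp+AxL mice and 9.31, 9.03, 9.09, 9.42 and 9.18 in AxL mice. TPlp+AxL mouse 2 lay only 0.16 above the highest AxL array, while the other TPlp+AxL mice lay between 10.59 and 10.85. The mean was 10.49 ± 0.52 in TPlp+AxL and 9.2 ± 0.16 in AxL (SD, n = 5 each), a difference of 1.29 (SE 0.21, 2.44-fold).

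**Figure D2:**
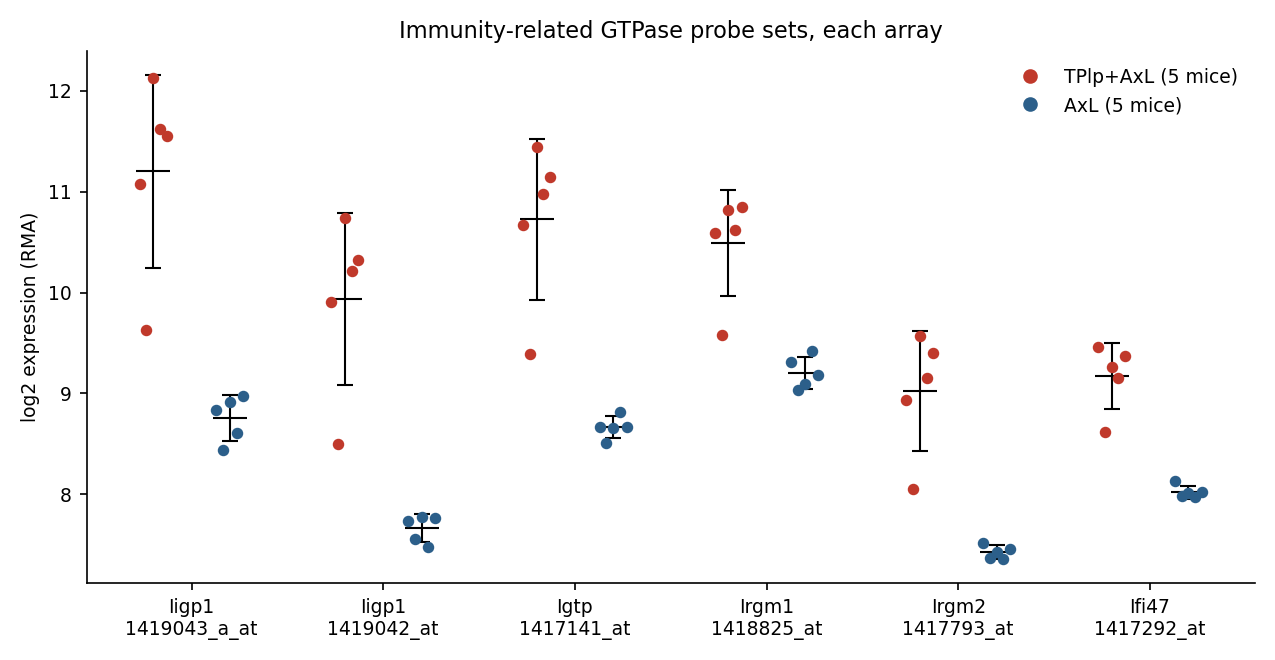
Log2 RMA expression (y axis) of the 6 IRG probe sets (x axis) in 5 TPlp+AxL mice (red, left of each pair) and 5 AxL mice (blue, right). Each point is 1 array, and the bars are the mean and SD. The red points lie above the blue points for every probe set, and the lowest red point is TPlp+AxL mouse 2 each time.

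The members were put in order by the size of their difference, within the same mice. That order was taken from these same values, so the direction of each step came with it. The steps are a description and no test. Relative to its AxL mean, the dimmer Iigp1 probe set exceeded Igtp by 0.21 (SE 0.09), Igtp exceeded Irgm2 by 0.47 (SE 0.11) and Irgm2 exceeded Irgm1 by 0.31 (SE 0.1), each in 5 of 5 TPlp+AxL mice. Irgm1 and Ifi47, at the low end of the order, were 0.14 apart (SE 0.14), and Irgm1 was above Ifi47 in 3 of 5 mice. The order did not follow the roles, since the effectors stood at both ends of it and the regulators between them. Probe sets differ in how far they compress a change, so the order is one of measured differences.

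The spread within TPlp+AxL was large beside that within AxL. From the lowest to the highest TPlp+AxL mouse, the brighter Iigp1 probe set spanned 5.66-fold, Igtp 4.14-fold, Irgm2 2.87-fold, Irgm1 2.42-fold and Ifi47 1.79-fold, while in AxL the same 5 spans ran from 1.12-fold to 1.45-fold. The SD in TPlp+AxL was 3.27 (Irgm1) to 8.57 (Irgm2) times that in AxL. TPlp+AxL mouse 2 was the lowest of its group for all 6 probe sets, at 0.37 (Irgm1) to 0.87 (brighter Iigp1) above the AxL mean. TPlp+AxL mouse 3 was at 1.24 (Ifi47) to 3.37 (brighter Iigp1) above it, and was the highest for Iigp1, Igtp and Irgm2. The AxL mice kept no such common order, with mouse 2 lowest for the brighter Iigp1 probe set, Igtp and Irgm1 and mouse 4 for the other 3 probe sets.

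**Figure D3:**
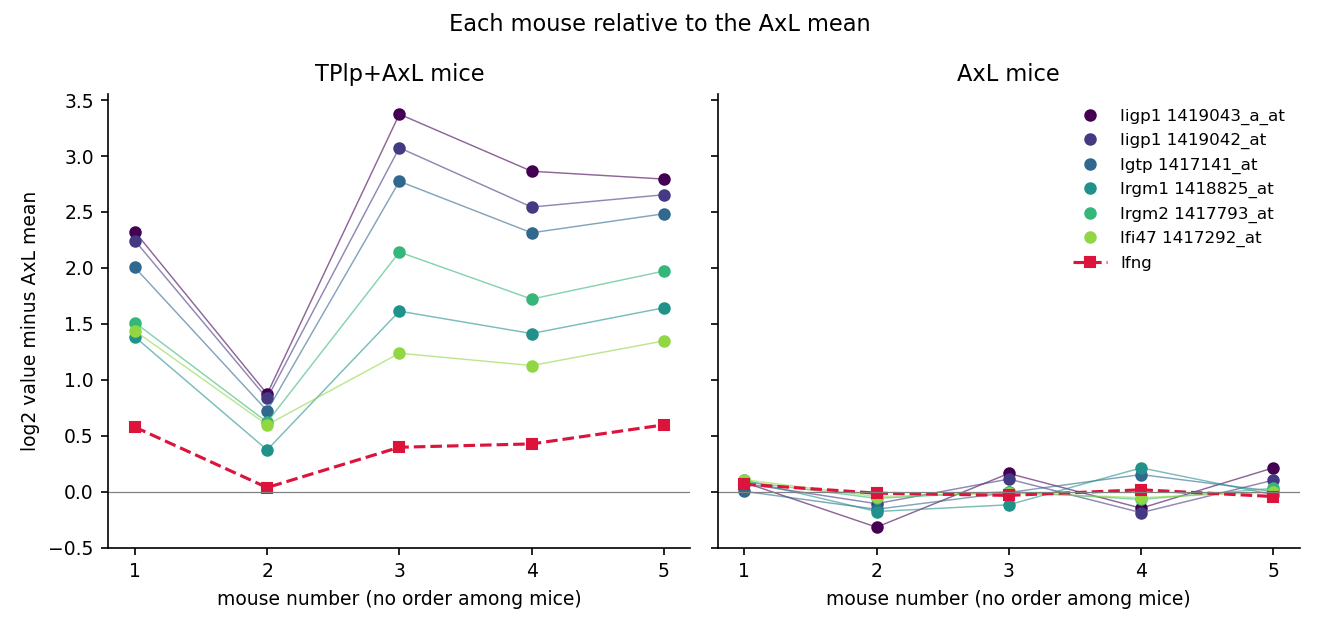
Log2 value minus the AxL mean (y axis) of the 6 IRG probe sets (circles) and of Ifng (red squares) in each mouse (x axis), TPlp+AxL on the left and AxL on the right. Lines join the points of 1 probe set and imply no order among mice. TPlp+AxL mouse 2 sits between 0.37 and 0.87 for the IRG probe sets and mouse 3 between 1.24 and 3.37, while all AxL points lie near 0.

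Of 12 other listed IRG family genes, 4 were represented by a probe set of their own and 1 rose, where 0.646% of all probe sets did. Tgtp1, Tgtp2 and Gm12250 were among those without a probe set of their own, so the count does not cover the family. Gm4951, an IRG family gene of little known function, read 8.51, 7.67, 9.62, 9.02 and 9.09 in TPlp+AxL mice and 7.12, 7.05, 7.19, 6.93 and 7.24 in AxL mice, again with mouse 2 lowest and the groups apart. Its difference was 1.68 (SE 0.28, limma adjusted p = 0.0178). The call was lost with a trended and robust variance (adjusted p = 0.0618), without TPlp+AxL 4 (0.0638), without TPlp+AxL 5 (0.0582) and without AxL 5 (0.0519), and its p over all alternatives ran from 0.000259 to 0.241.

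The other 3 family genes did not pass in limma. They were Irgq, a family member with degenerate GTP-binding motifs, at -0.15 (adjusted p = 0.337), Irgc1, which is known from testis and is not induced by interferon, at -0.07 (adjusted p = 0.446), and Gm12185 at -0.02 (adjusted p = 0.85). One further probe set is annotated to 2 family genes at once and cannot be given to either. It read 10.31, 8.96, 10.68, 10.41 and 10.63 in TPlp+AxL mice and 8.13, 7.94, 8.3, 8.12 and 8.16 in AxL mice, a difference of 2.07 (SE 0.27, 4.19-fold, limma adjusted p = 0.00474), with TPlp+AxL mouse 2 lowest once more. Members of the family are close in sequence, so signal from related genes in the probe sets above was not tested.

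The guanylate-binding proteins (GBPs) are the sister family of interferon-induced GTPases and act with the IRGs at the pathogen's membrane. Of 6 measured GBP genes 5 rose, where 0.646% of all probe sets did. Their median difference over all 6 was 1.6, beside 1.59 for the IRG members. Gbp2 rose by 2.39 (SE 0.23, limma adjusted p = 0.00115), Gbp6 by 2.09 (SE 0.36, 0.0192), Gbp7 by 1.78 (SE 0.2, 0.00221) and Gbp3 by 1.42 (SE 0.24, 0.017). Gbp2 read 10.15 in TPlp+AxL mouse 2, against 11.36 to 11.54 in the other TPlp+AxL mice and 8.59 to 9.11 in AxL mice. Gbp2b rose by only 0.36 (SE 0.07, 0.0346), and Gbp8 had a difference of 0.97 that did not pass (SE 0.26, 0.125). The count of 5 fell to 2 without TPlp+AxL 4, without TPlp+AxL 5 or without AxL 5, to 3 without AxL 1, and to 0 when TPlp+AxL 1, AxL 3 and AxL 5 were all left out, where 6 of 6 had an unadjusted p under 0.05. With a trended and robust variance Gbp6 did not pass (0.061).

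**Figure D4:**
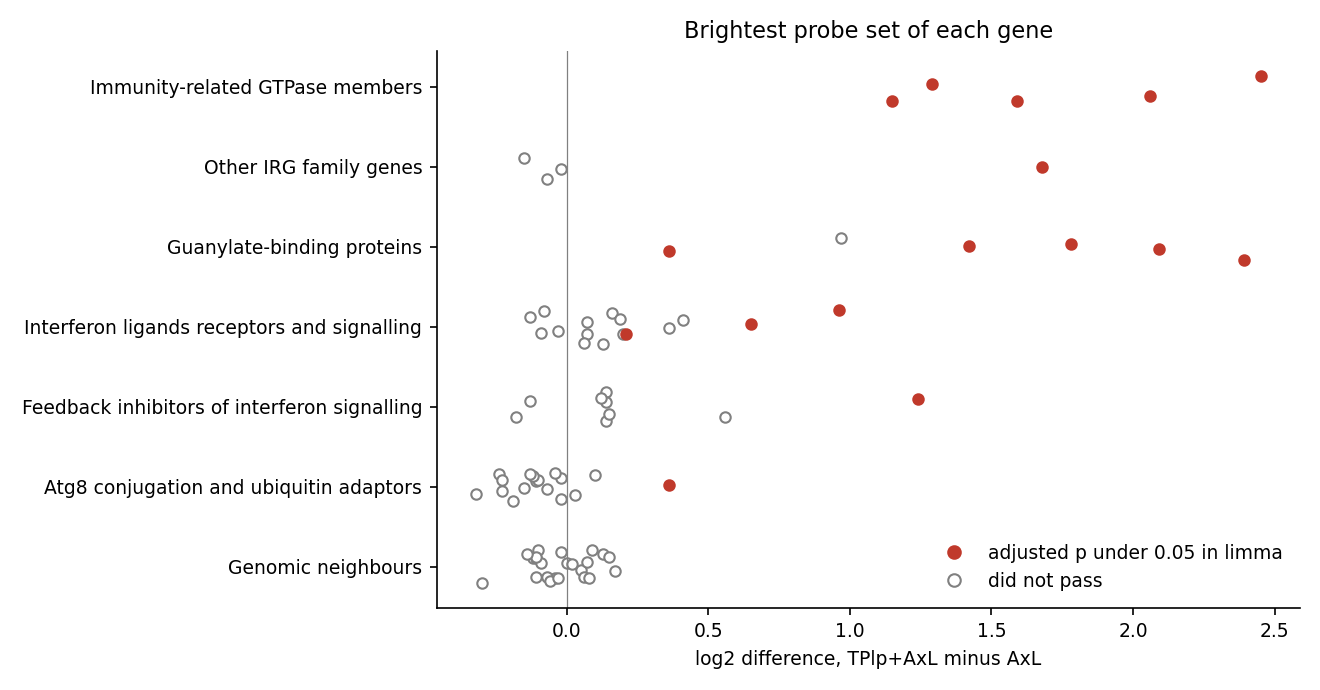
Log2 difference, TPlp+AxL minus AxL (x axis), of each gene's brightest probe set in the 5 IRG members and 6 other gene lists (rows). Filled points passed an adjusted p under 0.05 in limma and open points did not. The IRG members lie between 1.15 and 2.45, the GBPs between 0.36 and 2.39, and the neighbouring genes outside the IRG family between -0.3 and 0.17.

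Upstream of the IRGs, 3 of 16 measured genes of interferon ligands, receptors and signalling rose and 0 fell, beside 0.646% and 0.189% of all probe sets. The median difference of the 16 was 0.14, and 8 had an unadjusted p under 0.05, which 14.3% of all probe sets had. Irf1, the factor that binds IRF elements, was 10.29 ± 0.34 in TPlp+AxL and 9.33 ± 0.03 in AxL (SD, n = 5 each), a rise of 0.96 (SE 0.13, limma adjusted p = 0.00644). Irf8, a factor of macrophages and microglia, rose by 0.65 (SE 0.11, 0.0204) and passed in 10 of 18 alternatives (adjusted p 0.000154 to 0.312), the call being lost without TPlp+AxL 1, 3, 4 or 5 or AxL 1, 3 or 5, each left out alone. The dimmer Irf8 probe set rose by 0.37 (SE 0.05, limma adjusted p = 0.00956). Ifngr1, the ligand-binding chain of the interferon gamma receptor, rose by 0.21 (SE 0.04, 0.0367), but passed in only 6 of 18 alternatives (adjusted p 0.0127 to 0.165). The count was 1 without TPlp+AxL 1, 3, 4 or 5, AxL 1 or AxL 5, each left out alone, and 5 without TPlp+AxL 2.

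Ifng, the gene of interferon gamma, did not pass (difference 0.41, SE 0.09, limma adjusted p = 0.0706). It read 7.16, 6.62, 6.98, 7.01 and 7.18 in TPlp+AxL mice and 6.65, 6.57, 6.55, 6.6 and 6.54 in AxL mice. The array inside the AxL range was TPlp+AxL mouse 2, the mouse with the lowest IRG values of its group. Among the other TPlp+AxL mice, mouse 3 had the lowest Ifng (6.98) and the highest Iigp1, Igtp and Irgm2. All Ifng values lay below the array medians of 7.875 to 7.92, and RMA compresses differences of dim probe sets. Ifnb1, the gene of interferon beta, had a difference of 0.07 (SE 0.05, 0.582). Among the factors downstream of type I interferon, Irf9 had a difference of 0.36 (SE 0.1, 0.143), Stat2 0.19 (SE 0.06, 0.203) and Irf7 0.16 (SE 0.05, 0.164). None of them passed, though each had an unadjusted p under 0.05 in limma, which 14.3% of all probe sets had.

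Among 9 feedback inhibitors of interferon signalling, 1 rose and 0 fell, beside 0.646% and 0.189% of all probe sets. The median difference of the 9 was 0.14, and 6 had an unadjusted p under 0.05, which 14.3% of all probe sets had. Socs3, which blocks Jak kinases and is induced mainly by cytokines that signal through Stat3, was 10.59 ± 0.27 in TPlp+AxL and 9.35 ± 0.38 in AxL (SD, n = 5 each), a rise of 1.24 (SE 0.18, limma adjusted p = 0.0078), and both of its other probe sets rose too (1.24 and 0.57). Socs1, the inhibitor most closely tied to interferon gamma, had a difference of 0.12 (SE 0.07, 0.453), with 7.71 to 7.73 in TPlp+AxL mice and 7.43 to 7.89 in AxL mice. Usp18, which limits type I interferon signalling, had a difference of 0.56 (SE 0.15, 0.138). The count was 2 without TPlp+AxL 2.

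IRG effectors reach the pathogen's membrane with the help of the Atg8 conjugation machinery of autophagy, and ubiquitin ligases and adaptors follow them there. Of 17 measured genes of this kind 1 rose and 0 fell by the brightest probe set, beside 0.646% and 0.189% of all probe sets. An unadjusted p under 0.05 was found for 7 (14.3% of all probe sets had one), and 14 of the 17 differences were negative, with a median of -0.11. Trim21, a ubiquitin ligase and antibody receptor, rose by 0.36 (SE 0.07, limma adjusted p = 0.0392). That call was lost without TPlp+AxL 3, 4 or 5 or any 1 AxL array (adjusted p 0.0209 to 0.213 over the alternatives), and the second Trim21 probe set did not pass (0.09, 0.273). The core conjugation genes Atg5 (-0.07), Atg7 (-0.02) and Atg16l1 (-0.1) did not pass, nor did the adaptor Sqstm1 (-0.32, SE 0.1, 0.198). Map1lc3a, an Atg8 family gene, did not pass by its brightest probe set (-0.15, 0.17), while its dimmer one fell by 0.31 (SE 0.05, 0.0198).

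The protein-coding genes around the 5 members were taken as the 5 nearest on each side with the members and all other IRG family genes left out, so that genes of the clusters themselves are not among them. Gm4951, which lies near Iigp1 and rose, and the adjacent members Igtp and Irgm2 are thus not counted. Of the 31 genes so chosen, 23 had a probe set, 0 passed in limma in either direction, 5 had an unadjusted p under 0.05 (14.3% of all probe sets did), and the median difference was -0.03. Differences ran from -0.3 to 0.17. Timd4, a phosphatidylserine receptor of macrophages, had 0.17 (SE 0.04, adjusted p = 0.0681) and passed with a trended and robust variance (0.0368), and Sh3bp5l had -0.11 (SE 0.04, 0.272).

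Genes were ranked by how closely their values followed the mean of the 5 members across the 10 arrays after each group's mean was removed, over 6875 genes with enough spread. The 8 most alike were Parp14 (r = 0.989), Parp9 (0.985), Gbp7 (0.982), Cd274 (0.979), Gbp6 (0.975), Fpr2 (0.955), Ccl7 (0.955) and Gbp3 (0.953). Parp14 and Parp9 belong to the ADP-ribosyltransferases, Cd274 encodes the checkpoint ligand PD-L1, Fpr2 is a formyl peptide receptor of myeloid cells and Ccl7 is a chemokine for monocytes. These values are a description with no test, and they depend on TPlp+AxL mouse 2. Without it, r was 0.9 for Parp14 and 0.55 for Fpr2, the range over the 8, and 0 of the 8 stayed among the first 8. Of the 8, 5 still had enough spread to be ranked without that mouse, and Parp14, Parp9 and Fpr2 did not. Without TPlp+AxL mice 2 and 3, the arrays farthest from the median, r ran from 0.37 (Ccl7) to 0.87 (Parp14), and Spearman's rho over all 10 arrays ran from 0.64 (Gbp6) to 0.9 (Parp9).

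Parp14 read 8.26, 7.84, 8.4, 8.29 and 8.35 in TPlp+AxL mice and 7.65, 7.55, 7.69, 7.65 and 7.67 in AxL mice. Its highest TPlp+AxL array was mouse 3 and its lowest mouse 2, as for Iigp1, Igtp and Irgm2, and all 8 genes rose (0.646% of all probe sets did). On the same scale of likeness, Irf1 had r = 0.88 (place 31 of 6875), Usp18 0.86 (place 36) and Irf9 0.85 (place 39). Irf8 and Irf2 had 0.84 each (places 45 and 47) and Ifng 0.81 (place 65), while the family gene Irgq had r = 0.1 (place 4370). These r values include TPlp+AxL mouse 2, the lowest of its group for Irf1 and Ifng. Among the other TPlp+AxL mice, mouse 3, the highest for Iigp1, Igtp and Irgm2, had the lowest Irf1 (10.3) and Ifng (6.98).

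Marker lists gave the levels of other cell types in the same arrays. Hippocampal neuron markers, 8 of 8 measured, averaged 11.59 to 11.78 in TPlp+AxL arrays and 11.63 to 11.83 in AxL arrays. In limma 0 of 8 passed and 3 had an unadjusted p under 0.05 (14.3% of all probe sets did), and all array medians were 7.875 to 7.92. T cell markers, 8 of 9 measured, averaged 7.82 to 8.05 in TPlp+AxL and 7.58 to 7.68 in AxL, and 2 rose (0.646% of all probe sets did). These were Cd3g (7.67 in TPlp+AxL and 6.8 in AxL, difference 0.87) and Cd3d (8.37 in TPlp+AxL and 7.74 in AxL, difference 0.63). The other T cell markers differed by 0.02 (Cd8a) to 0.4 (Cd2) and did not pass. The list mean thus averages 2 risers with markers that changed less. Monocyte and neutrophil markers, 5 of 6 measured, averaged 9.74 to 10.08 in TPlp+AxL and 8.37 to 8.87 in AxL. Of the 5, 4 rose (0.646% of all probe sets did), Chil3 (2.18), Plac8 (1.92), S100a9 (1.18) and S100a8 (1.14). Ccr2 differed by 0.13 and did not pass. The part of these cells in the IRG differences was not tested.

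TPlp+AxL mouse 2, low for every IRG probe set, averaged 7.85 for the T cell list, where its group ran from 7.82 to 8.05. For monocyte and neutrophil markers it was the lowest of its group at 9.74, with 9.77 to 10.08 in the other TPlp+AxL mice. Whether cell content had a part in the low IRG values of this mouse was not tested. It was also the lowest for microglia markers, 6 of 7 measured, at 9.73, with 9.85 or more in the other TPlp+AxL mice and 9.85 to 10.12 in AxL mice. Astrocyte markers (5 of 5) averaged 11.81 to 12.04 in TPlp+AxL and 11.82 to 12.09 in AxL, endothelial markers (5 of 5) 8.0 to 8.16 in TPlp+AxL and 8.13 to 8.51 in AxL, and oligodendrocyte markers (4 of 5) 11.23 to 11.47 in TPlp+AxL and 11.4 to 11.71 in AxL. In these 4 lists 0 markers passed in limma, while 0, 2, 3 and 3 had an unadjusted p under 0.05 (14.3% of all probe sets did), in the order named. TPlp+AxL mouse 2 was the lowest of its group for oligodendrocyte markers too (11.23), and shared the lowest astrocyte value with mouse 4 (11.81 each). It was not the lowest for endothelial (8.11) or neuron (11.61) markers.

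**Figure D5:**
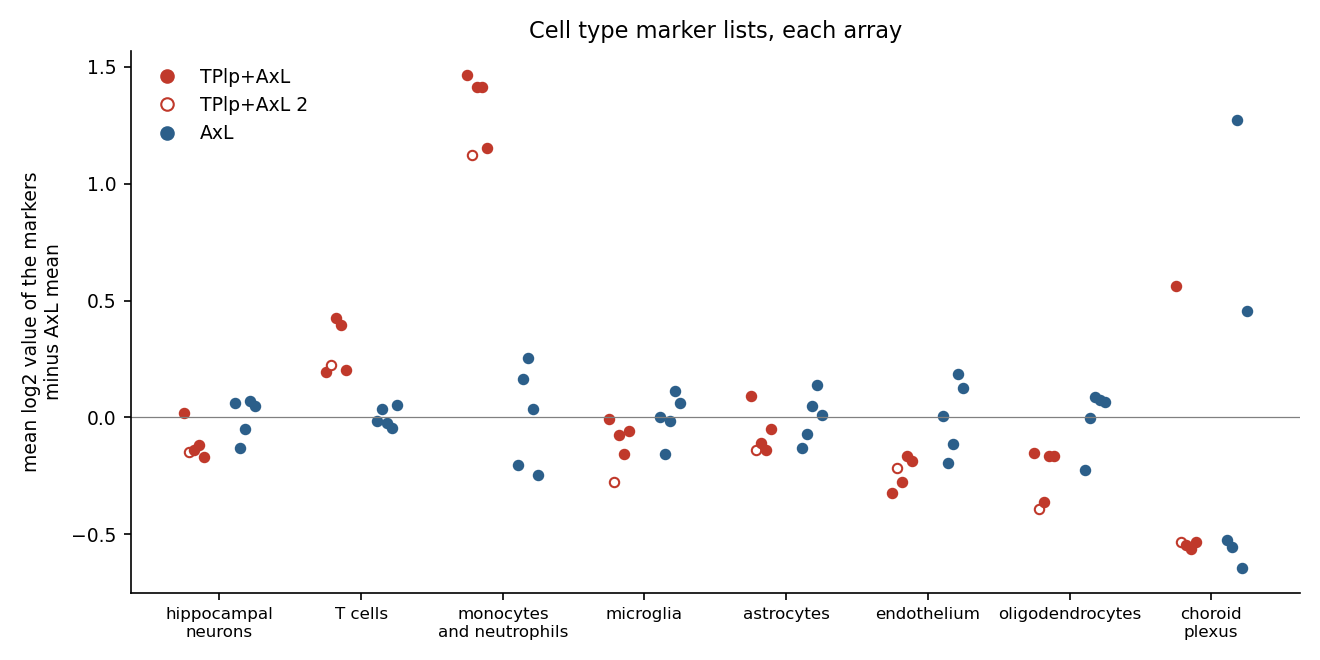
Mean log2 value of each cell type's markers minus its AxL mean (y axis) for 8 cell types (x axis), in TPlp+AxL arrays (red, left) and AxL arrays (blue, right). The open red circle is TPlp+AxL mouse 2. T cell and monocyte and neutrophil markers lie higher in TPlp+AxL, and choroid plexus markers split both groups.

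Choroid plexus, a tissue next to the hippocampus that can be dissected with it, stood apart in 3 arrays. Its 6 markers averaged 9.7 in TPlp+AxL mouse 1, 10.41 in AxL mouse 3 and 9.59 in AxL mouse 5, against 8.57 to 8.6 in the other TPlp+AxL mice and 8.49 to 8.61 in the other AxL mice, and 0 of the 6 passed in limma or had an unadjusted p under 0.05. With these 3 arrays left out together, the IRG probe sets differed by 1.07 (Ifi47) to 2.6 (brighter Iigp1), all 6 had an unadjusted p under 0.05 and 0 of 6 passed the adjusted threshold, which 1 of all 45037 probe sets then passed. The signalling, feedback, Atg8 and ubiquitin and other family lists had 0 calls there too, with 8, 5, 5 and 1 genes at an unadjusted p under 0.05. In every other alternative all 6 passed, except that 5 passed without TPlp+AxL 4, where Irgm1 did not.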

How the data were processed

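RNA of 10 hippocampi was measured on Affymetrix arrays. The deposited values are on the log2 scale. The authors obtained them by RMA, as the submitters' processing notes list. The RMA software is not given in the sources used here. RMA brings arrays to 1 shared scale and compresses differences of dim probe sets, so folds are those of the log2 scale. Arrays give no counts, and the number of arrays limits the precision. All 45 pairs of arrays differed.

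The 64 control probe sets were left out of 45101, and the rest were tested with no filter. Gene symbols are those of the platform annotation, updated by Entrez identifier through a mouse gene table of GRCm38.p6 (34741 of 34945 probe sets with 1 symbol, with 932 listing several genes and 9160 none). Each of 18193 genes was represented by its brightest probe set. The test was limma 3.58.1 in R 4.3.3 (lmFit and eBayes, two-sided), with p-values adjusted by Benjamini-Hochberg across the whole table. It was tested for recovery of known changes on simulated data with the same spread in both groups. The IRG probe sets spread more in TPlp+AxL, so that run does not show how the test behaves for them. Promoter windows were aligned with Biopython 1.88. Likeness was Pearson's r of group-centred values, for genes with an SD of at least 0.1.

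The members, the lists and the tests were chosen with earlier results of these data known. Named were every IRG gene measured, up to 4 genes past the threshold per list with the largest difference (or the 2 with the smallest p), and the 8 genes most alike in pattern. Gbp2b, Gbp8, Ifng, Ifnb1, Irf2, Irf7, Irf9, Stat2, Socs1, Usp18, Atg5, Atg7, Atg16l1, Sqstm1, Map1lc3a and the markers were named after their values were seen. The alternatives were other variance models and normalizations, a filter on dim probe sets, array weights, a replicate block, averaged probe sets, and arrays left out singly or, chosen after seeing the data, 3 together.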

Additional observations from a re-analysis of the deposited data

Results flagged for a closer look

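Within a group of 5 arrays, 8 of 52 checks found 1 array far from the other 4 (Dixon's test at its 95% value, which chance passes in about 5% of groups, and these genes are not independent checks). In 7 of the 8 the array was TPlp+AxL mouse 2, the mouse with the lowest value of its group for every immunity-related GTPase probe set. Irgm1 read 9.58 in that mouse, with 10.59 to 10.85 in the other TPlp+AxL mice. Gbp2 read 10.15, with 11.36 to 11.54 in the others, and Irf8 read 8.95, with 9.48 to 9.57. Socs3 read 10.12, with 10.63 to 10.82 in the others. Among the genes most like the members, Parp14 read 7.84 (others 8.26 to 8.4), Parp9 8.51 (others 8.97 to 9.14) and Fpr2 8.56 (others 9.03 to 9.16). These genes were picked for following the members' mean profile, in which mouse 2 is lowest (-1.07), so their low value there came with the choice. The eighth was Parp14 in AxL mouse 2, at 7.55 with 7.65 to 7.69 in the other AxL mice.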

How the results depend on the processing

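Each immunity-related GTPase probe set was higher in TPlp+AxL under every alternative, by 1.07 (Ifi47) to 2.84 (Iigp1), and the genes' median difference ran from 1.46 to 1.84. Without the 3 arrays high in choroid plexus markers (TPlp+AxL 1, AxL 3 and AxL 5), limma called 1 of all probe sets (4743 at an unadjusted p under 0.05), and 0 members (6), 0 other family genes (1), 0 GBPs (6), 0 signalling genes (8), 0 feedback genes (5), 0 Atg8 and ubiquitin genes (5) and 0 neighbours (3), with the unadjusted counts in parentheses. Leaving out 1 array at a time gave 185 to 460 calls over all probe sets, 5 to 6 of the members, 0 to 1 of the other family genes, 2 to 6 of the GBPs, 1 to 5 of the signalling genes, 1 to 2 of the feedback genes and 0 to 1 of the Atg8 and ubiquitin genes. Array weights gave 753 calls. The split of 291 higher and 85 lower became 269 and 210 with each array's median subtracted and 348 and 43 with cyclic loess. A trended and robust variance called 0 other family genes and 1 neighbour, and averaging a gene's probe sets called 1 neighbour and 2 Atg8 and ubiquitin genes, while subtracting medians called 0 of those. Quantile and cyclic loess normalization called 2 feedback genes each. Of the 8 genes most like the members, 5 stayed with the TPlp+AxL arrays alone and 0 without TPlp+AxL 2. The groups share replicate numbers, but same-numbered arrays correlated at -0.2239 to 0.3627 and only 1 of 5 was closest to its own number, so the numbers were not taken as pairs; with a replicate block 241 probe sets, all 6 members and 0 Atg8 and ubiquitin genes passed. For those results the cause was not tested.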
